A study of Homo sapiens with 2 samples.

Results

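Interferon-stimulated genes are the genes that a cell switches on when it senses interferon, and 39 of them, with their STAT2 and IRF regulators, are described here in a human lung cancer line and its drug-resistant derivative. They were chosen by symbol from a list, and all 39 had rows in both tables, among 30843 gene symbols in all. PC9 is a lung adenocarcinoma line with an activating EGFR deletion, sensitive to EGFR tyrosine kinase inhibitors. MTAC-P was raised from PC9 and is resistant to these inhibitors. The labels do not give how resistance was obtained, whether MTAC-P is a clone, or any interferon or inhibitor treatment at harvest, and both lines were grown in DMEM with serum. The tables give 1 value per line and transcript. Whether it stands for 1 library, a pool or a mean of the triplicates that the series text mentions is not given, which leaves every difference without a replicate check, a p-value or an error. Values are FPKM, fragments scaled to transcript length and library size, summed over the listed transcripts of a symbol.

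Type I and type III interferons bind receptors on the cell surface and activate the kinases JAK1 and TYK2. In response, STAT2 is phosphorylated and joins IRF9 in a complex that binds the interferon-stimulated response element (ISRE) in the promoters of target genes. Type II interferon acts through the gamma-activated site (GAS). The products of the target genes sense viral RNA, block its translation, degrade it, or hold virus particles at membranes, and epithelial cells keep some of them on at a basal level without added interferon.

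To show the element that ties these genes together, the promoters in RefSeq (build GRCh38.p14) were searched from 250 bases before to 50 after the start for the ISRE core, GAAA followed after 2 unspecified bases by another GAAA, on both strands. Of the 39 genes, 32 had a promoter in the table, and 22 of these (68.8%) held a match, against 4.38% of all 27305 symbols; by window, 61.9% of 42 windows against 3.57% of 35116. The GAS core, TTCNNNGAA, was in 10 of the 32 (31.2%), against 9.38% of all symbols. The stretches below belong to the 6 genes with the highest levels here that hold an ISRE match before the start. They run 5′ to 3′ on the strand of the gene, and the capitals mark the match or, in BST2 and ISG15, 2 overlapping matches. IFITM3 and OAS3 hold 2 matches and IFI6 holds 3 in the whole window, of which 1 is shown.
BST2: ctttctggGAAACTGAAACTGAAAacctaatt
IFITM3: actgttgaGAAACCGAAActactggg
ISG15: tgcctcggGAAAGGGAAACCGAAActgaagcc
SAMD9: tgagaaatGAAACTGAAAccaaacct
OAS3: ccgggcggGAAAACGAAAcc
IFI6: agagtgcaGAAATAGAAActccgaca

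These stretches lie at chr19:17405737-17405768 (minus strand) for BST2, chr11:320878-320903 (minus) for IFITM3, chr1:1013376-1013407 (plus) for ISG15, chr7:93118098-93118123 (minus) for SAMD9, chr12:112938454-112938473 (plus) for OAS3 and chr1:27672268-27672293 (minus) for IFI6. The matches begin 130 bases before the start in BST2, 113 in ISG15, 136 in SAMD9, 93 in IFI6, 35 in IFITM3 and 12 in OAS3. A match describes the letters and does not show that a factor binds there.

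By their listed transcripts, most interferon-stimulated genes were low in both lines, and a few were abundant. The mean of both lines was at least 50 FPKM for 2 genes, BST2 and IFITM3, between 5 and 50 for 4, between 1 and 5 for 13, between 0.1 and 1 for 13, and under 0.1 for 7. The 7 include IFI27, none of whose 10 annotated coding transcripts was listed. Of 156 annotated coding transcripts of the 39 genes 74 were listed, so a level can be too low. The median over the 39 genes was 0.892 FPKM in PC9 against 1.17 in MTAC-P. Of the 39 genes 48.7% had a mean of at least 1, beside 55.4% of all symbols with a coding transcript and 37.1% of all symbols. Their summed level was 246 FPKM in PC9 against 249 in MTAC-P, of which BST2 and IFITM3 gave 66.9% and 70.7%. Without these 2 genes the sum was 81.3 in PC9 against 73.0 in MTAC-P. The interferon-stimulated genes as a group were therefore at a similar summed level in both lines.

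**Figure D1:**
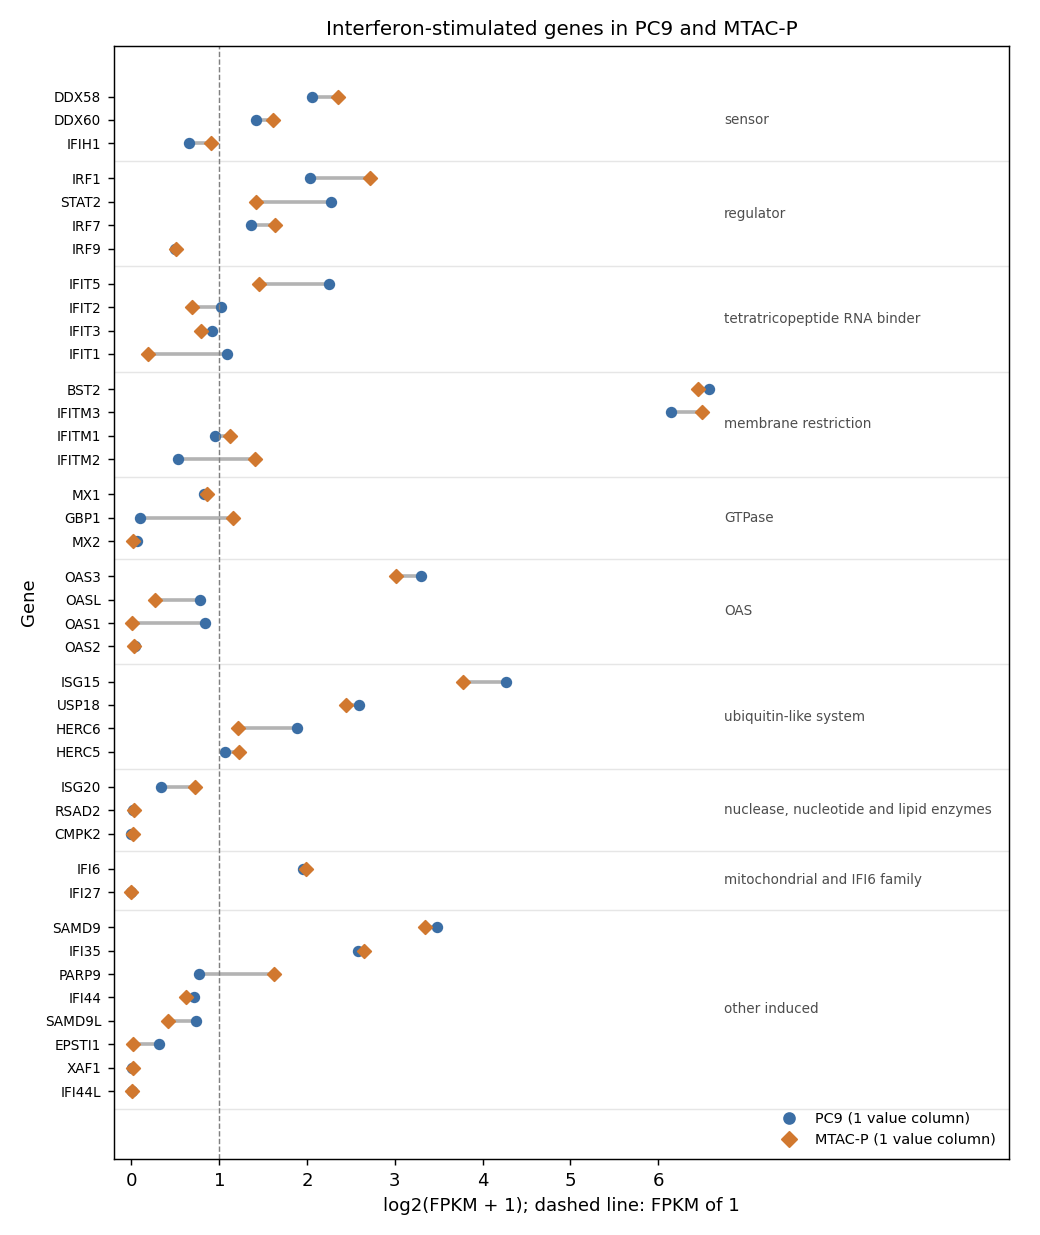
Levels of all 39 interferon-stimulated genes as log2(FPKM + 1), grouped by role, with PC9 as blue circles and MTAC-P as orange diamonds, 1 value column each. BST2 and IFITM3 lie far to the right of the others in both lines, and most genes lie near or left of the dashed line at 1 FPKM.

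A comparison was made for the 19 genes whose mean reached 1 FPKM, on the scale log2((MTAC-P + 1)/(PC9 + 1)), the log2 ratio below. The other 20 are given by their levels. None of the 19 was at least 2-fold higher or lower in MTAC-P. Over all 11435 genes compared in the same way, 7.77% reached 2-fold, 3.48% higher and 4.29% lower, and at such a share a count of 0 among 19 genes is not particular to them. The median log2 ratio of the 19 was 0.07, with 11 above 0 and 8 below, and it was -0.02 over all genes compared. At 1.5-fold, 3 of the 19 (15.8%) were higher, IFITM2, PARP9 and IRF1, where 8.96% of all genes compared were. Likewise 3 were lower, STAT2, IFIT5 and HERC6, where 11.2% of all genes were. The log2 ratio understates differences of low genes. On the plain ratio of FPKM, 2 of the 19 were at least 2-fold higher, IFITM2 at 3.76-fold and PARP9 at 2.98-fold (5.15% of all genes compared). On that scale 3 were at least 2-fold lower, STAT2 at 2.30-fold, IFIT5 at 2.15-fold and HERC6 at 2.06-fold (7.13% of all genes compared). IFITM2 and PARP9 were below 1 FPKM in PC9, at 0.439 and 0.698. They reached the minimum mean only through MTAC-P, so the filter itself favoured a higher call for them. In bulk RNA, fewer expressing cells and less RNA per cell cannot be told apart.

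**Figure D2:**
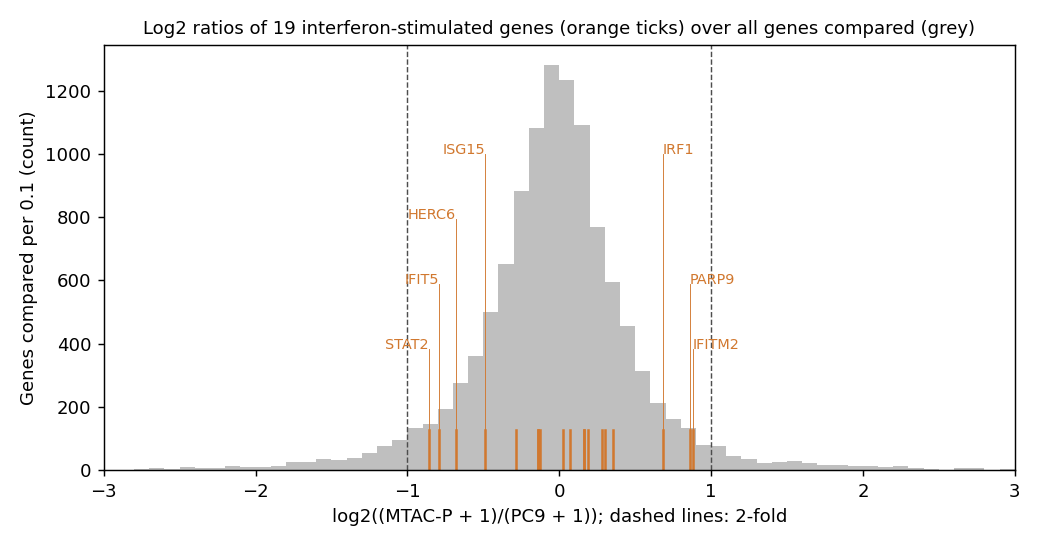
Log2 ratios of the 19 compared interferon-stimulated genes (orange ticks) over the histogram of all 11435 genes compared (grey, genes per 0.1 on the log2 scale), cut at 3 on either side. All 19 lie between the dashed lines at 2-fold, from STAT2 at -0.86 to IFITM2 at 0.88.

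The sensors of viral RNA were low, and each stood slightly higher in MTAC-P. Of the 11435 genes compared 5440 had a log2 ratio above 0. DDX58, which encodes the double-stranded RNA sensor RIG-I (chromosome 9, 32455705 to 32526324), stood at 3.15 FPKM in PC9 against 4.12 in MTAC-P, a log2 ratio of 0.30. DDX60, a related helicase, stood at 1.67 and 2.05 (0.19). IFIH1, which encodes the sensor MDA5 for long double-stranded RNA, stood at 0.581 and 0.875, below the minimum mean. Of its 2 listed transcripts the longer one, of 3595 nt, stood at 0.516 and 0.374. The shorter one, of 1617 nt, stood at 0.0650 and 0.501 and carried the difference.

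The regulators differed in direction. STAT2, a transcription factor of the type I response (chromosome 12, 56341597 to 56360155), stood at 3.84 FPKM in PC9 against 1.67 in MTAC-P (-0.86). This difference lay in the transcript of 1548 nt, at 3.10 and 0.741. The transcript of 3259 nt stood at 0.744 and 0.926, so it did not share the direction. IRF1, a transcription factor of the interferon-gamma and NF-kB responses (chromosome 5, 132481609 to 132490798), stood at 3.09 and 5.56 (0.68). Nearly all of it came from the transcript of 2061 nt, at 2.80 and 5.39. IRF1 overlaps exons of genes on the other strand, and the labels do not say whether the libraries keep strand. IRF7, the factor that amplifies type I interferon production, stood at 1.56 and 2.11 (0.28) over 6 listed transcripts. IRF9, the DNA-binding partner of STAT2, stood at 0.414 and 0.418. Every 50-base stretch of its expressed transcript also occurs in AL136295.5, an overlapping gene, so reads of both cannot be told apart.

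The IFIT genes, whose products bind viral RNA and hold back its translation, stood lower in MTAC-P at low levels. They lie together on chromosome 10 between 89283694 and 89421001. IFIT5, the only IFIT gene with a mean of at least 1, stood at 3.75 FPKM in PC9 against 1.75 in MTAC-P (-0.79). Its transcript of 4015 nt stood at 1.55 and 1.75. A second transcript, which is not in GENCODE release 29, stood at 2.20 in PC9 against 1.9e-05 in MTAC-P, and the lower sum rests on it. IFIT1 stood at 1.13 and 0.137, IFIT2 at 1.03 and 0.607, and IFIT3 at 0.892 and 0.726. All 4 sums were lower in MTAC-P, and without the second IFIT5 transcript 3 of 4 were. IFIT1, IFIT2 and IFIT3 were below the minimum mean. Of the 11435 genes compared 5995 had a log2 ratio below 0.

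Genes whose products act at membranes held the highest levels. BST2 encodes tetherin, which holds budding virus particles at the cell surface (chromosome 19, 17402939 to 17405648). Its level was 94.6 FPKM in PC9 against 86.6 in MTAC-P (-0.13), above 92.7% and 92.0% of the genes compared. IFITM3, which blocks virus entry from endosomes (chromosome 11, 319669 to 327537), stood at 69.8 and 89.5 (0.35). Its neighbours IFITM1 and IFITM2 were far lower, at 0.940 and 1.17 for IFITM1 (0.16) and at 0.439 and 1.65 for IFITM2 (0.88). All 3 IFITM genes stood higher in MTAC-P, and IFITM1 and IFITM2 were below 1 FPKM in PC9. Of the 11435 genes compared 5440 had a log2 ratio above 0. Of the 50-base stretches of the IFITM1 transcript 42.3% also occur in other genes, mostly IFITM2, and of those of IFITM2 8.36% occur in IFITM3, so that the split of reads among them is uncertain.

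The interferon-induced GTPases were all below the minimum mean. GBP1, a guanylate-binding protein that acts on the membranes of intracellular pathogens (chromosome 1, 89052319 to 89065360), stood at 0.0697 FPKM in PC9 against 1.23 in MTAC-P, a log2 ratio of 1.06. With no minimum mean it was the 1 gene of the 39 at 2-fold, where 3.33% of all 30843 symbols were. It has 1 annotated coding transcript, which was listed, and 10.9% of its 50-base stretches occur in the pseudogene GBP1P1. MX1, which traps viral nucleocapsids, stood at 0.769 and 0.809, and MX2 at 0.0416 and 0.00818.

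The OAS genes make the signal that activates the nuclease RNase L on double-stranded RNA, apart from OASL, which lacks that activity. OAS3 (chromosome 12, 112938352 to 112973249) was the 1 gene of this family above the minimum mean, at 8.86 FPKM in PC9 against 7.10 in MTAC-P (-0.28). OAS1 stood at 0.783 and 0.00100, from the 1 transcript listed of 9 annotated coding transcripts. OAS2 stood at 0.0315 and 0.0164, and OASL at 0.718 and 0.200. All 4 sums were lower in MTAC-P, and 5995 of the 11435 genes compared had a log2 ratio below 0. OAS1, OAS2 and OASL were below the minimum mean, and OAS2 (-0.02) was too low to show a direction.

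ISG15 is a ubiquitin-like protein that is attached to other proteins, HERC5 is its ligase, and USP18 removes it and also restrains the type I receptor. ISG15 (chromosome 1, 1001138 to 1014540) stood at 18.2 FPKM in PC9 against 12.7 in MTAC-P (-0.49), the highest level after BST2 and IFITM3. It has 1 of 4 annotated coding transcripts listed. USP18 stood at 5.01 and 4.45 (-0.14), and 23.0% of the 50-base stretches of its transcript occur in USP41. HERC6, a relative of HERC5, stood at 2.71 and 1.32 (-0.68), nearly all from a transcript of 3779 nt. Its neighbour HERC5 stood at 1.09 and 1.34 (0.16). The 2 HERC genes on chromosome 4 thus had log2 ratios of opposite sign.

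The remaining genes held several that are strongly induced by interferon in other cells and were close to 0 here. RSAD2, which encodes the antiviral enzyme viperin, stood at 0.0112 FPKM in PC9 against 0.0233 in MTAC-P. CMPK2, a nucleotide kinase beside it on chromosome 2, was listed at 0 in PC9 and stood at 0.00820 in MTAC-P. ISG20, an exonuclease, stood at 0.267 and 0.651. IFI44L stood at 0.00585 and 1e-05, XAF1, a proapoptotic protein, at 0.00280 and 0.0148, and EPSTI1 at 0.246 and 0.0102. IFI44 stood at 0.640 and 0.542, and SAMD9L at 0.663 and 0.335. IFI27 was listed at 0 in both lines, but none of its 10 annotated coding transcripts was listed, so its level is not known from these tables.

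Others of this group were expressed at similar levels in both lines. SAMD9, an antiproliferative protein that also limits poxviruses (chromosome 7, 93099513 to 93118023), stood at 10.2 FPKM in PC9 against 9.13 in MTAC-P (-0.14). IFI35 stood at 4.99 and 5.28 (0.07). IFI6, a small membrane protein with antiapoptotic activity (chromosome 1, 27666061 to 27672218), stood at 2.88 and 2.96 (0.03). PARP9 was the exception. It is a poly(ADP-ribose) polymerase family protein that works with the ubiquitin ligase DTX3L (chromosome 3, 122527924 to 122564577), and it stood at 0.698 and 2.08 (0.86). DTX3L, which overlaps it on the other strand, stood at 12.2 and 16.4 (0.40). Its transcript of 5868 nt was nearly level at 12.2 and 12.9, and one of 687 nt, at 0.0110 and 3.47, carried most of the difference. PARP9 had 1 of 6 annotated coding transcripts listed.

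An equal sum could hide a difference between transcripts of a gene. IFI6 showed this most plainly. Its transcript ENST00000361157 stood at 0.103 FPKM in PC9 against 2.65 in MTAC-P, and ENST00000339145 at 0.961 and 0.210. ENST00000362020 stood at 1.82 in PC9 and made up 3.40% of the sum in MTAC-P. PC9 thus had 63.1% of its IFI6 in ENST00000362020 and 33.3% in ENST00000339145, and MTAC-P had 89.5% in ENST00000361157. The 3 are 841, 828 and 822 nt long. IFI35 had a retained-intron transcript of 747 nt listed at 0 in PC9 against at 1.84 in MTAC-P, and another of 595 nt at 0.995 in PC9 and listed at 0 in MTAC-P, while its coding transcript stood at 3.99 and 3.43. Of the 20 transcripts of these genes with a mean of at least 1, 3 were at least 2-fold apart, 1 each of STAT2, IFIT5 and IFI6. Of all 19406 transcripts with that mean, 16.6% were, so differences of this kind were common throughout the tables. How far the division of reads among transcripts gives rise to them was not tested.

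**Figure D3:**
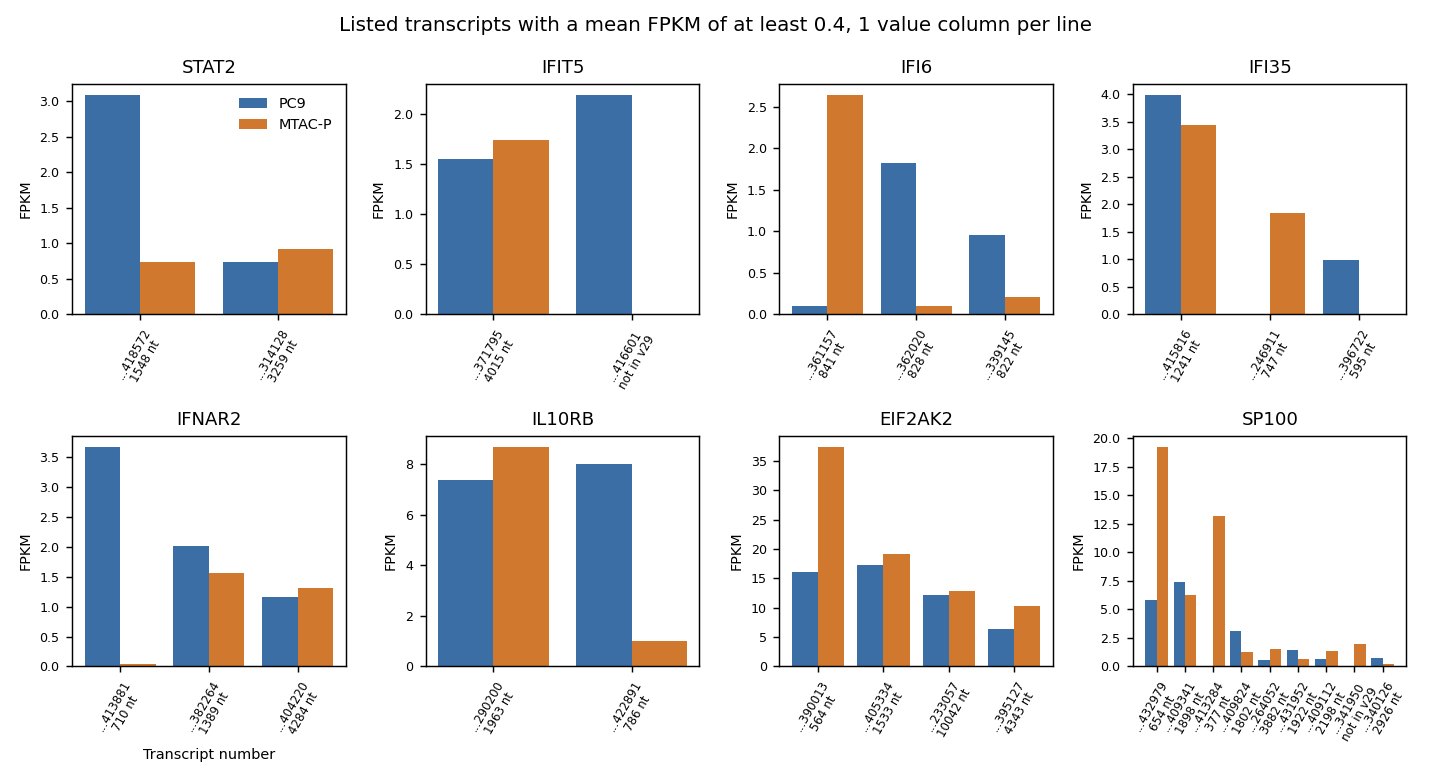
FPKM of each listed transcript with a mean of at least 0.4 in 4 interferon-stimulated genes (top row) and 4 related genes (bottom row), PC9 in blue and MTAC-P in orange, with the transcript number and its length in GENCODE release 29 on the x axis. In STAT2, IFIT5, IFNAR2 and IL10RB a transcript high in PC9 is near 0 or much lower in MTAC-P while the longest one is similar in both lines.

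The log2 ratios of genes with and without an ISRE match had similar medians. The 11 compared genes with a match had a median of 0.03, from IFIT5 at -0.79 to PARP9 at 0.86. The 5 compared genes with a promoter in the table and no match had a median of 0.07, from STAT2 at -0.86 to IRF1 at 0.68. The ranges overlap almost entirely.

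Of the pathway around these genes, the interferon ligands were nearly all listed at 0. Of 21 ligand genes 19 were in the tables, 17 of them at 0 in both lines. IFNA1 was at 0.459 FPKM in PC9 but listed at 0 in MTAC-P, and 60.7% of its 50-base stretches occur in IFNA13. The gene of interferon lambda 1, named IL29 in the tables, was listed at 0 in PC9 and stood at 0.185 in MTAC-P. No ligand reached the minimum mean.

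Receptors and their kinases were expressed in both lines, and 2 receptor chains were at least 2-fold lower in MTAC-P. Of 7 genes compared in the list of receptors and JAKs, 2 were at least 2-fold lower and none higher, with a median of -0.62. Over all genes compared 4.29% were lower by that much. With a pseudocount of 5 none of the 7 reached 2-fold. IFNGR2, the signalling chain of the interferon-gamma receptor (chromosome 21, 33402896 to 33479348), stood at 7.48 FPKM in PC9 against 2.38 in MTAC-P (-1.33), and its 3 expressed transcripts were each lower in MTAC-P. IFNAR2, the high-affinity chain of the type I receptor (chromosome 21, 33229901 to 33265675), stood at 7.78 and 3.08 (-1.11). Of this, a transcript of 710 nt made up 3.68 and 0.0346, while the transcript of 4284 nt stood at 1.17 and 1.31. The partner chains IFNAR1 (0.03) and IFNGR1 (0.03) were level.

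IL10RB, the shared chain of the type III receptor, stood at 15.4 FPKM in PC9 against 9.71 in MTAC-P (-0.62), with a transcript of 786 nt at 8.03 and 1.01 beside one of 1963 nt at 7.40 and 8.70. Of the 50-base stretches of the transcript of 1963 nt 88.1% also occur in AP000295.1, an overlapping gene, so the division of reads between them is uncertain. JAK1 stood at 28.1 and 38.6 (0.44) and TYK2 at 2.10 and 0.894 (-0.71). When sums were limited to the transcripts that GENCODE marks as basic, which leaves out most incomplete ones, the log2 ratio of IL10RB turned to 0.21. The median of the list turned from -0.62 to 0.08, while IFNGR2 (-1.33) and IFNAR2 (-1.01) were still at 2-fold. The IFNAR2 transcript of 710 nt is itself marked basic, so this limit left it in and does not check the IFNAR2 difference. STAT2 was also the same under that limit (-0.86), since its listed transcripts are all basic, and IFIT5 turned to 0.11. This limit was chosen after the values were seen.

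**Figure D4:**
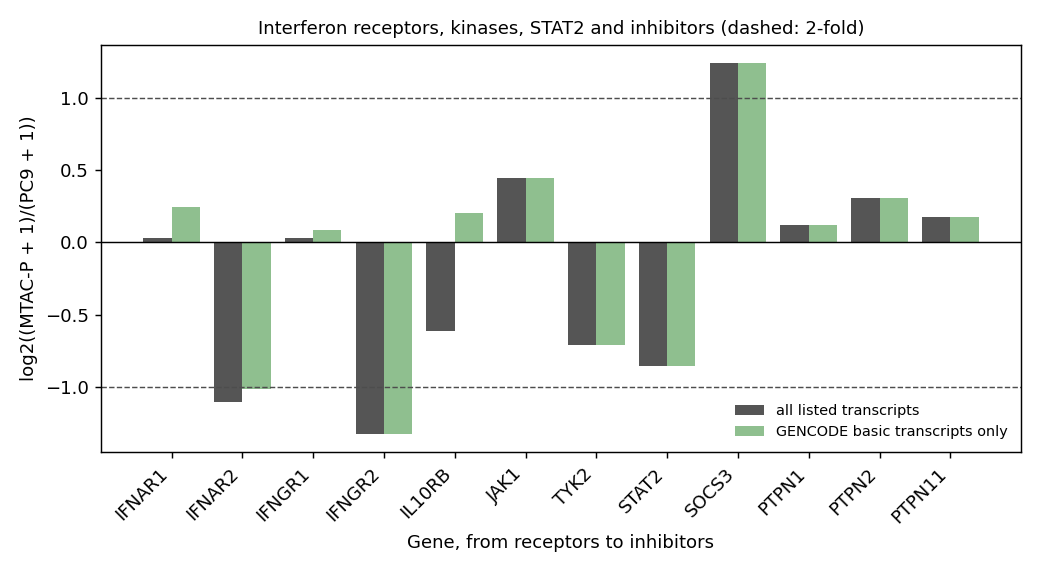
Log2 ratio of receptors, kinases, STAT2 and inhibitors from all listed transcripts (dark bars) and from GENCODE basic transcripts only (green bars), 1 value column per line. IFNGR2, IFNAR2, TYK2 and STAT2 are below 0 and SOCS3 above 0 in both, whereas IL10RB changes sign. The bars of IFNGR2, TYK2, STAT2 and SOCS3 are equal because all their expressed transcripts are basic.

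Among 8 compared genes that restrain interferon signalling, SOCS3 was the 1 at 2-fold. SOCS3, which blocks JAK kinases at cytokine receptors, stood at 3.40 FPKM in PC9 against 9.43 in MTAC-P (1.24), and with a pseudocount of 5 at a log2 ratio of 0.78, so that none of the 8 reached 2-fold. The phosphatase genes PTPN11 (61.6 and 69.6, 0.17) and PTPN1 (33.7 and 36.7, 0.12) were abundant and level, and the median of the list was 0.08. Of 16 compared genes of nucleic acid sensing none reached 2-fold, with a median of 0.14. IRF3, the factor that sensors activate, stood at 94.2 and 97.8 (0.05). EIF2AK2, which encodes the RNA-activated kinase PKR, stood at 51.9 and 79.7 (0.61), and a transcript of 564 nt, at 16.1 and 37.4, carried most of that difference.

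In a list of other interferon-induced genes, 36 were compared, 2 were higher by 2-fold or more and 1 lower, and the median was 0.03. The shares over all genes compared were 3.48% and 4.29%. With a pseudocount of 5 the count at 2-fold was 1 in place of 3, since LGALS3BP (-0.72) and PSMB8 (0.75) no longer reached it. LGALS3BP, a secreted glycoprotein, stood at 8.01 FPKM in PC9 against 2.88 in MTAC-P (-1.22) from its 1 listed transcript. PSMB8, an immunoproteasome subunit, stood at 7.36 and 15.8 (1.01) over 14 listed transcripts, most of which are not in the GENCODE release used. Its 3 basic transcripts alone stood at 0.628 FPKM in PC9 against 2.48 in MTAC-P, a log2 ratio of 1.10. The level of PSMB8 thus rests mostly on transcripts without a GENCODE match, while the direction was the same in the basic ones. SP100, a nuclear body protein, stood at 19.9 and 45.8 (1.17), which became -0.20 with basic transcripts only. The most abundant, LY6E (211 and 154, -0.46) and PNPT1 (75.02 and 113, 0.58), were within 2-fold. None of the 2 annotated coding transcripts of PNPT1 was listed, so the level of its coding transcripts is not known.

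In a list of 20 interferon gamma targets and chemokine genes, 9 were compared, none of them a chemokine gene. These 9 stood higher in MTAC-P by their counts, 8 of 9 above 0 and 3 of them by 2-fold or more. Their median was 0.72, the value of HLA-DRB1. HLA-DRB1 (0.717 and 1.83 FPKM), CD274 (0.718 and 2.12) and HLA-DRA (0.733 and 1.35) were below 1 FPKM in PC9. They reached the minimum mean only through MTAC-P, so the filter itself favoured a log2 ratio above 0 for them. Of the 11435 genes compared 5440 were above 0, and 3.48% were higher by 2-fold or more. With a pseudocount of 5 the median was 0.26 and 1 of 9 reached 2-fold, since GBP3 (0.67) and NLRC5 (0.47) no longer did. ICAM1, an adhesion molecule that NF-kB also drives, stood at 15.2 FPKM in PC9 against 35.4 in MTAC-P (1.17). GBP3, next to GBP1, stood at 2.80 and 7.37 (1.14). NLRC5, the activator of class I antigen presentation genes, stood at 1.11 and 3.47 (1.08), of which an incomplete transcript of 550 nt made up 1.93 in MTAC-P and was listed at 0 in PC9. WARS was level (0.04). With basic transcripts only, 7 genes were compared, 2 were at 2-fold and the median was 0.32, with NLRC5 at 0.32.

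The cells had the markers of epithelium, such as KRT18 (2329 and 2720 FPKM) and KRT19 (549 and 430), with all 8 markers above the minimum mean. Of 14 leukocyte markers, which would show blood cells rich in these genes, only CD68 reached it (22.2 and 28.8), and 3 were listed at 0 in both lines. Their summed level was 24.4 in PC9 against 30.5 in MTAC-P, mostly CD68, a lysosomal protein that other cells also make, and 92.6% of whose 50-base stretches occur in the overlapping gene AC016876.2. PTPRC, the common leukocyte antigen CD45, was at 0.0910 and 0.0460, and CD14 at 1.19 and 0.605. The part of other cells in the levels above was not tested. Of 7 fibroblast and endothelial markers in the tables CDH5 (3.34 and 4.13) and COL1A1 (1.20 and 1.33) reached it.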

How the data were processed

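RNA of PC9 and MTAC-P was sequenced. The values the authors deposited, 1 for each transcript, are read as FPKM because the submitters' processing notes name Trim Galore, TopHat and Cufflinks, with build hg38; the tables do not name the unit, while versions are not given in the sources used here. Triplicates are mentioned in the series text, yet the tables hold 1 value column per line, and whether cultures or libraries were pooled or averaged is not given. Each table holds 65535 transcripts and ends at transcript number 437205, so a gene's sum can lack transcripts: of 156 coding transcripts of the 39 genes in GENCODE release 29, 74 were listed, and all for 8 genes. The depth is unknown, since the tables hold no counts, and an exact 0 can be a failed estimate.

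Values were summed per symbol in Python 3.11.15 with pandas 2.3.3. Genes with a mean of at least 1 were compared as log2((MTAC-P + 1)/(PC9 + 1)) and counted at 2-fold, with no test. Of 82 listed transcripts of the 39 genes, 77 were in GENCODE, which gave lengths and coordinates. Shared stretches are 50-base words of a gene's most abundant transcript found in transcripts of other genes. Of the 39 genes 32 matched the promoter table by symbol, and printed stretches have 8 flanking bases unless the start was nearer. The steps were tested on simulated data.

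The 39 genes and the other lists were chosen with earlier results of these data known. All 39 were named; of other lists, up to 4 genes at 2-fold and the 2 most abundant. In the receptor and JAK list, 1 gene is not reported here. IFNAR1, IL10RB, TYK2, DTX3L, CD274, HLA-DRA, HLA-DRB1, CXCL9, CXCL10, CXCL11 and CCL5, and the genes in the closing section, were added after their values were seen. IFI16, UBA7 and SOCS1 stand in 2 lists.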

Additional observations from a re-analysis of the deposited data

How the results depend on the processing

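The counts of 0 genes at 2-fold, higher and lower, held with a pseudocount of 5, centring on the median, equal upper quartiles, a minimum mean of 5 (6 genes), coding transcripts only, all coding transcripts listed (5 genes) and GENCODE basic transcripts only. With a pseudocount of 0.1 there were 2 higher (IFITM2 and PARP9, both below 1 FPKM in PC9) and 2 lower (IFIT5, STAT2). With a common sum, which also lowers the weight of the pseudocount, 2 were higher and 0 lower, and without mitochondrial genes in that sum 3 were higher and 2 lower (IFIT1, STAT2). With no minimum mean 1 was higher (GBP1), with the highest transcript only 1 higher (IFI6) and 1 lower (STAT2), at 1.5-fold 3 and 3, and with no minimum mean and a pseudocount of 0.1 together 4 and 6 of 39. This last setting and the basic transcripts were added after seeing the data. The median of 0.07 became 0.0145 without mitochondrial genes, 0 with no minimum mean (also with a pseudocount of 0.1), -0.13 at a minimum mean of 5 and -0.13 with all coding transcripts listed, and otherwise stayed between 0.04 and 0.09. The cause was not tested beyond what these settings change themselves. Under alternatives 329 of 350 values of the 39 genes stayed on their side of 2-fold, 20 passed it, 1 (GBP1 with a pseudocount of 5, 0.30) no longer did, and 0 reversed a call. Only GBP1 (1.06) of the 39 was at 2-fold to begin with, so hardly any call could be lost or reversed. The pseudocount also holds genes near 0 FPKM near a ratio of 0. A change of sign within 2-fold counts as staying, as for IFIT5, from -0.79 to 0.11 with basic transcripts only. Of 233 values of other named genes under alternatives 218 stayed on their side, 4 passed 2-fold, 10 no longer did and 1 reversed. Of the 10, 7 came with a pseudocount of 5 (IFNGR2 -0.76, IFNAR2 -0.66, SOCS3 0.78, LGALS3BP -0.72, PSMB8 0.75, GBP3 0.67 and NLRC5 0.47). The others were PSMB8 with equal upper quartiles (0.98) and with the highest transcript only (0.87), and NLRC5 with basic transcripts only (0.32). SP100 turned from 1.17 to -0.20 with basic transcripts only. Depth is unknown, so values near 1 FPKM have no known precision. No paired analysis was possible because PC9 and MTAC-P have 1 value column each.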

Other observations

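Guanylate-binding protein genes lie in a row on chromosome 1 between 89006666 and 89386461, where GBP1 and GBP3 stood higher in MTAC-P and GBP2 did not. GBP3 stood at 2.80 FPKM in PC9 against 7.37 in MTAC-P, with a log2 ratio of 1.14, beside 1.06 for GBP1. GBP2, on the other side of GBP1, stood at 1.82 and 1.67 (-0.08). GBP4 stood at 0.0571 and 0.0290 and GBP5 at 0.0208 and 0.00173, and GBP6 and GBP7 were listed at 0 in both lines, too low to show a direction. RBMXL1, which is next to GBP3 and is no GBP gene, stood at 2.98 and 4.58 (0.49).

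The interferon receptor genes lie together on chromosome 21 in the order IFNAR2, IL10RB, IFNAR1 and IFNGR2, with log2 ratios of -1.11, -0.62, 0.03 and -1.33. Genes beyond them did not share 1 direction. GART, an enzyme of purine synthesis, stood at 9.99 and 19.6 (0.90), SON, a splicing protein, at 46.4 and 45.3 (-0.03), and DONSON, a replication fork protein, at 7.23 and 3.49 (-0.87). TMEM50B, whose span overlaps that of IFNGR2 on the other strand, stood at 0.332 and 0.0374, and DNAJC28 at 0.427 and 0.380, both below 1 FPKM. Of the 50-base stretches of the most abundant IFNAR2 transcript 88.0% also occur in AP000295.1, an overlapping gene that joins IFNAR2 and IL10RB. The loci were picked after their values were seen.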
